A study of Mus musculus with 4 samples.

Results

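The NRF2 pathway and the glutathione defence were examined here through 10 genes, chosen by name from the deposited expression table: *Nfe2l2* and *Keap1*, which encode the transcription factor NRF2 and its inhibitor, and 8 classic NRF2 targets (*Nqo1*, *Hmox1*, *Gclc*, *Gclm*, *Srxn1*, *Txnrd1*, *Slc7a11* and *Gsr*). All 10 were found, each as 1 of the 22103 entries of the table. The rule that selects them is their names and uses no measured value, but earlier results of these data were known when the genes were chosen. RNA-seq had been performed on whole liver tissue of 2 WT littermates and 2 Brg1 LKO mice. In the latter a floxed *Smarca4* (f/f) was deleted in hepatocytes by *Alb*-Cre. All 4 were male mice, 8 weeks of age when alcoholic liver injury was induced, and all 4 went through the NIAAA procedure, an ethanol liquid diet of 2 weeks followed by a single ethanol gavage (the sample labels give alcohol in the drink for 15 days). No liver without ethanol was analysed here, so the comparison is between genotypes under ethanol and does not address the response to ethanol itself. *Alb*-Cre acts in cells of the hepatocyte lineage, and the macrophages and endothelial cells of the whole tissue keep the gene. In bulk tissue, fewer cells of a type and less RNA per cell cannot be told apart.

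NRF2 is held at a low level in resting cells because KEAP1 presents it to a CUL3 ubiquitin ligase. Electrophiles and oxidants modify cysteines of KEAP1, NRF2 then escapes degradation, pairs with a small MAF protein and binds antioxidant response elements (AREs) near its target genes. The targets make glutathione, recycle thioredoxin and glutathione, and detoxify quinones and heme. Hepatocytes that oxidise ethanol produce reactive oxygen species and acetaldehyde, and glutathione is a main defence of the liver against the former. BRG1, the ATPase encoded by *Smarca4*, is known as a partner of NRF2 at the *Hmox1* enhancer in cultured cells.

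Promoter sequences are shown first, because the ARE is the feature by which NRF2 targets are recognised. RefSeq windows of 300 bases (250 before and 50 after the annotated start, GRCm38.p6) were found for 7 of the 10 members, 9 windows in all because *Txnrd1* has 3. They were searched on both strands for the core ARE, TGACNNNGC, and for the AP-1 heptamer TGACTCA, which overlaps many AREs. The core ARE was present in 4 of the 9 windows, 1 each of *Nfe2l2*, *Gclm*, *Srxn1* and *Txnrd1*, and 12.4% of all 32851 promoter windows held it. The heptamer was present in the *Srxn1* window only among the 9, in 2 copies, and 5.2% of all windows held it. A match is a description of letters in this window and not a binding site, and several well-studied AREs lie further upstream. The 4 windows with a match follow, 5′ to 3′ on the strand of the gene, with the matches in capitals. They are chr2:75704614-75704913 (*Nfe2l2*, minus strand), chr3:122245307-122245606 (*Gclm*, plus strand), chr2:152105274-152105573 (*Srxn1*, plus strand) and chr10:82858956-82859255 (*Txnrd1*, plus strand). The matches begin 240 bases before the start in *Nfe2l2*, 134 before it in *Gclm* and 92 before it in *Txnrd1*. In *Srxn1* the heptamers begin 102 and 45 bases before the start and the core ARE 28 bases after it.
Nfe2l2: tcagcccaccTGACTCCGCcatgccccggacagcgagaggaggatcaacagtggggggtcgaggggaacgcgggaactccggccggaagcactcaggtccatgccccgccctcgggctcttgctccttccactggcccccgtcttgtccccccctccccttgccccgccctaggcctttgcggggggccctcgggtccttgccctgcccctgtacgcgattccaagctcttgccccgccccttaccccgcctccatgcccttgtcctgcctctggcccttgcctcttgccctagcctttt
Gclm: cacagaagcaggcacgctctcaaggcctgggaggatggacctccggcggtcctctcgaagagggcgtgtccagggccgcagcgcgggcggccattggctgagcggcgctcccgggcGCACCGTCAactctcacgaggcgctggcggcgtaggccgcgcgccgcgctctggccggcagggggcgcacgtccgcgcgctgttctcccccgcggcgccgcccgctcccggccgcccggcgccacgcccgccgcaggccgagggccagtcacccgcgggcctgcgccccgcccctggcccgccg
Srxn1: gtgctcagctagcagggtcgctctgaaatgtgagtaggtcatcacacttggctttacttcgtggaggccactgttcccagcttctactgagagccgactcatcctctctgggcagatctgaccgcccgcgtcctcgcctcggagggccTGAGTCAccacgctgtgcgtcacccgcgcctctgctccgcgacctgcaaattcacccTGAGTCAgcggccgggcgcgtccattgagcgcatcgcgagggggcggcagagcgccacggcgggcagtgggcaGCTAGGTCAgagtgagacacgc
Txnrd1: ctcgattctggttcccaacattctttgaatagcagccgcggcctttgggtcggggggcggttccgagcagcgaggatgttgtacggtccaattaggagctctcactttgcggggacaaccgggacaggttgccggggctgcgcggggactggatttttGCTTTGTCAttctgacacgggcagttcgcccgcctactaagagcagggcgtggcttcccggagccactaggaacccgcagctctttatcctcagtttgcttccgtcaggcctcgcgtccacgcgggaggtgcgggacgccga

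The values of the table are FPKM, which are scaled to transcript length and to the size of the library, so that levels can be compared between genes. Estimated library totals, read from the steps of low values, were 72500000 to 80700000 reads, and the members rested on 71 to 7215 estimated reads per liver. *Smarca4* averaged 1.87 ± 0.116 FPKM (SD, n = 2) with WT and 0.593 ± 0.0204 FPKM (SD, n = 2) with Brg1 LKO labels, the direction that the labels give (log2 fold change −1.5, limma, unadjusted p = 0.000548, adjusted p = 1.00). Hepatocyte markers summed to 28551 to 34375 FPKM over the 4 livers, so the tissue matched its label. The livers also differed in cell type markers. Brg1 LKO means exceeded WT means for all 12 macrophage markers, with sums of 58.8 and 65.8 FPKM (WT) and of 77.2 and 159 FPKM (Brg1 LKO). For 9 of the 12 (75%) both Brg1 LKO values lay above both WT values, against 10.7% of all genes tested. In the same model, the study's flow cytometry and tissue staining of macrophages showed little difference between the genotypes. Marker RNA in bulk tissue is a different measure. With 2 livers against 2, an effect of genotype and other differences between the livers cannot be told apart. Erythroid markers summed to 181 FPKM in LKO replicate 1 and to 21.9 to 40.4 FPKM in the other livers. WT replicate 2 was above WT replicate 1 in 80.3% of the 12346 genes tested, with a median difference of 0.27 on the log2 scale, and LKO replicate 2 was above LKO replicate 1 in 73.2%, with a median difference of 0.30. Values within a genotype are therefore read below against these shifts.

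All 10 members passed the filter on low values (a mean of at least 0.1 FPKM), and none passed the test between the genotypes. A gene was called where limma gave an unadjusted p under 0.05 on log2(FPKM + 0.1) and the change was more than 2-fold. These limits are those of the study, which used them with DESeq, so the calls are not the study's own. Of the members, 0 of 10 passed this threshold against 0.98% of all genes tested (0.437% higher and 0.543% lower in Brg1 LKO). None had an unadjusted p under 0.05 either, which 2% of all genes tested had, and the adjusted p was 1.00 for each member (limma with Benjamini-Hochberg adjustment over all genes tested). All 10 log2 fold changes lay within 0.5 of 0, as did 90.2% of all genes tested. In the Brg1 LKO livers 6 members were higher (46.1% of all genes tested were) and 4 lower, with a median log2 fold change of 0.078, beside −0.024 over all genes tested. These directions rested on single WT livers: without WT replicate 1 only 1 member was above 0 (median −0.25), and without WT replicate 2 there were 9 (median 0.52). *Slc7a11* and *Txnrd1* kept their direction whichever liver was left out, and the other 8 did not. For *Slc7a11* no omission could change it, because both Brg1 LKO values lay below both WT values. A p above the threshold does not show that the levels were alike. The 95% intervals lay within a 2-fold change in either direction for 4 members, *Nfe2l2*, *Keap1*, *Gclm* and *Gsr*, and reached beyond it for the other 6. With 2 livers against 2, the smallest exact two-sided permutation p is 0.333, so the limma p-values rest on the spread shared across genes.

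**Figure D1:**
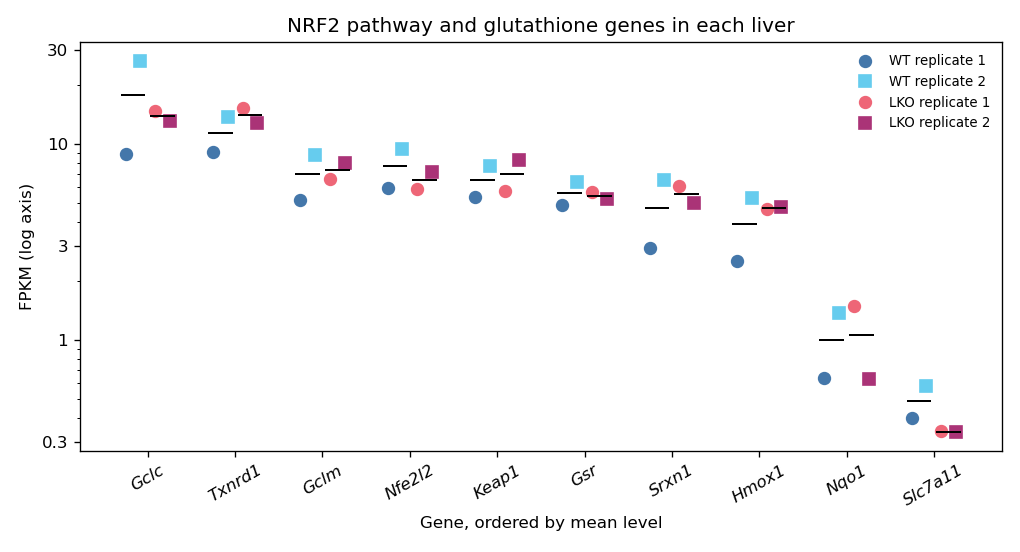
FPKM on a log axis for each of the 10 members in each liver, ordered by mean level over the 4 livers, with the group means as black bars. The WT livers (blue) lie wider apart than the Brg1 LKO livers (red and purple) for 8 of the 10 genes, and *Slc7a11* is the only gene with both Brg1 LKO points below both WT points.

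*Nfe2l2* (ENSMUST00000102672, 5 exons on the minus strand of chromosome 2, from 75675513 to 75704641 in GRCm38) measured 5.92 and 9.43 FPKM in WT mice against 5.86 and 7.15 FPKM in Brg1 LKO mice. One Brg1 LKO liver lay just under the lower WT liver and the other between the WT livers. The means were 7.68 ± 2.48 and 6.50 ± 0.909 FPKM (SD, n = 2 each), a log2 fold change of −0.20 with a 95% interval from −0.97 to 0.56. *Keap1* (ENSMUST00000164812, 5 exons, minus strand, chromosome 9, from 21230067 to 21238813) had WT values of 5.35 and 7.68 FPKM and Brg1 LKO values of 5.74 and 8.28 FPKM. The groups overlapped, and replicate 2 was the higher liver in each genotype. These gaps, 0.51 (WT) and 0.52 (Brg1 LKO) on the log2 scale, compare with median shifts of 0.27 and 0.30 over all genes tested. The log2 fold change was 0.10, with an interval from −0.66 to 0.87. An antisense gene is annotated over *Keap1*, and counting by strand is not stated for these values.

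The enzyme of the first and rate-limiting step of glutathione synthesis, glutamate-cysteine ligase, is made of a catalytic subunit, *Gclc*, and a modifier subunit, *Gclm*. *Gclc* (ENSMUST00000034905, 16 exons, plus strand, chromosome 9, from 77754535 to 77794485) reached 8.83 and 26.5 FPKM with the WT genotype and 14.7 and 13.1 FPKM after Brg1 deletion. Both Brg1 LKO values lay between the WT values, which were 3.0-fold apart, the widest gap between WT livers among the members. The log2 fold change of −0.14 (95% interval from −1.09 to 0.81) therefore turned on which WT liver was used, at 0.65 without WT replicate 2 and −0.93 without WT replicate 1. With 1 WT liver left, the spread comes from the Brg1 LKO livers, which for *Gclc* were 1.12-fold apart, so these are given as values only. *Gclm* (ENSMUST00000029769, 7 exons, plus strand, chromosome 3, from 122245557 to 122270732), whose promoter holds the core ARE shown above, varied less. It measured 5.19 and 8.80 FPKM in WT mice against 6.65 and 8.02 FPKM in Brg1 LKO mice, again with both Brg1 LKO values between the WT values. Its log2 fold change was 0.11, with an interval from −0.67 to 0.89. An antisense transcript and a pseudogene are annotated over *Gclm*.

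*Slc7a11* encodes the light chain of the cystine and glutamate exchanger that brings in cystine for glutathione synthesis, and it was the lowest of the 10 genes. It lies on the minus strand of chromosome 3 from 50364938 to 50443611 and has 12 exons (ENSMUST00000029297). Another gene model on the same strand is annotated over it. The level of *Slc7a11* was 0.396 and 0.581 FPKM in WT and 0.342 and 0.336 FPKM in Brg1 LKO mice, estimated at 295, 426, 246 and 225 reads. The higher Brg1 LKO value was under the lower WT value, an arrangement found in 1 of 10 members against 20.7% of all genes tested for either direction and 10% for this direction. The mean was 69.4% of the WT mean, and the log2 fold change of −0.40 had an interval from −1.17 to 0.36 (limma, unadjusted p = 0.277, adjusted p = 1.00). The exact permutation p was 0.333, the smallest that 2 livers against 2 can give. The 95% counting intervals of WT replicate 1 (262 to 331 reads, exact Poisson) and LKO replicate 1 (216 to 279 reads) overlapped. On these unscaled counts the other 3 pairs of a WT and a Brg1 LKO liver did not, with 387 to 468 reads in WT replicate 2 and 197 to 256 reads in LKO replicate 2. The intervals cover counting error only and are not scaled to the library totals. The gap between WT replicate 1 (from 262) and LKO replicate 2 (to 256) is smaller than the difference of their totals, 80700000 and 72500000 reads. That pair is therefore not shown to be apart. *Slc3a2*, the heavy chain of the same exchanger, had WT values of 8.77 and 14.1 FPKM and Brg1 LKO values of 8.31 and 8.95 FPKM, where the groups overlapped.

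Glutathione, thioredoxin and peroxiredoxin are kept reduced by the products of *Gsr*, *Txnrd1* and *Srxn1*. *Gsr*, the glutathione reductase gene (ENSMUST00000033992, 13 exons, plus strand, chromosome 8, from 33653238 to 33698163), was the steadiest member, with 4.87 and 6.38 FPKM (WT) and 5.65 and 5.24 FPKM (Brg1 LKO). The highest and the lowest liver were 1.31-fold apart, and the log2 fold change was −0.035 (95% interval from −0.76 to 0.69). *Txnrd1*, the cytosolic thioredoxin reductase gene (ENSMUST00000020484, 14 exons, plus strand, chromosome 10, from 82859179 to 82897712), reached 9.13 and 13.7 FPKM with the WT genotype and 15.3 and 12.8 FPKM after Brg1 deletion. LKO replicate 1 was above both WT livers and LKO replicate 2 lay between them, for a log2 fold change of 0.32 with an interval from −0.42 to 1.07. The listed transcript overlaps *Eid3*, a gene on the same strand. *Srxn1* encodes sulfiredoxin, which repairs overoxidised peroxiredoxins, and lies on the plus strand of chromosome 2 from 152105524 to 152111376 in 2 exons (ENSMUST00000041500). It measured 2.94 and 6.52 FPKM in WT mice against 6.10 and 5.0 FPKM in Brg1 LKO mice, both of them between the WT values. The log2 fold change of 0.33 had an interval from −0.53 to 1.18 and was −0.24 without WT replicate 1.

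*Nqo1* and *Hmox1* are the most often used readouts of NRF2. *Nqo1*, the quinone reductase gene (ENSMUST00000003947, 6 exons, minus strand, chromosome 8, from 107388225 to 107403206), had WT values of 0.636 and 1.36 FPKM and Brg1 LKO values of 1.49 and 0.630 FPKM. The values formed a high and a low level, each with 1 liver of either genotype, and the log2 fold change was 0.054 (95% interval from −0.89 to 1.00). The difference between the Brg1 LKO livers was larger than counting error, at an estimated 180 reads (155 to 208, exact Poisson) against 71 reads (55 to 90). *Hmox1*, the gene of heme oxygenase 1, which opens the heme ring, has 5 exons on the plus strand of chromosome 8 from 75093621 to 75100589 (ENSMUST00000005548). It reached 2.51 and 5.29 FPKM with the WT genotype and 4.64 and 4.74 FPKM after Brg1 deletion. Both Brg1 LKO values lay between the WT values, and the log2 fold change of 0.35, the highest of the members, had an interval from −0.48 to 1.18. Omitting WT replicate 2 gave 0.88, and omitting WT replicate 1 gave −0.17.

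*Hmox1* is also strongly expressed in Kupffer cells, the resident macrophages of the liver, so its values were set beside the macrophage markers. The level of *Hmox1* was 4.26% and 8.04% of the summed marker FPKM in WT mice and 6.0% and 2.98% in Brg1 LKO mice. The liver with the highest marker sum, LKO replicate 2, had almost the same *Hmox1* FPKM as LKO replicate 1, whose sum was 77.2 FPKM against 159 FPKM. LKO replicate 2 exceeded LKO replicate 1 by 0.032 for *Hmox1* and by a median of 0.30 over all genes tested, on the log2 scale. None of the 12 macrophage markers was at 0 in any liver. The erythroid marker sum, high in LKO replicate 1, also stood beside near-equal *Hmox1* levels of 4.64 and 4.74 FPKM in the Brg1 LKO livers. The part of macrophages or of red cell precursors in the *Hmox1* level was not tested.

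**Figure D2:**
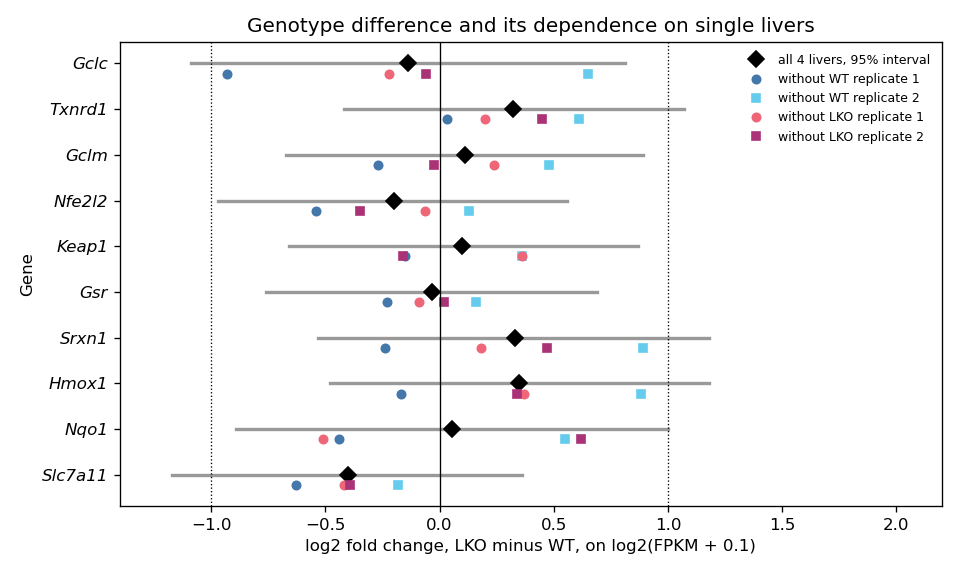
Log2 fold change of each member (Brg1 LKO minus WT, on log2(FPKM + 0.1)) with its 95% limma interval in grey, and below it the value with each liver left out in turn. Dotted lines mark a 2-fold change. Every interval crosses 0, and leaving out WT replicate 1 or WT replicate 2 moves *Gclc* from −0.93 to 0.65.

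The order of the levels was stable at its ends. *Gclc* and *Txnrd1* were the highest of the members in every liver, each first in 2 of the 4, and their ranges overlapped. *Hmox1*, *Nqo1* and *Slc7a11* were the 3 lowest, in this order, in all 4 livers, and the range of *Nqo1* (0.630 to 1.49 FPKM) was apart from those of its neighbours. Between these ends, *Gclm*, *Nfe2l2*, *Keap1*, *Gsr* and *Srxn1* overlapped each with the next in order, and their order changed from liver to liver.

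Ratios between members are free of the scaling between libraries. The ratio of *Gclc* to *Gclm* was 1.70 and 3.01 in WT mice and 2.21 and 1.63 in Brg1 LKO mice. One WT liver had the highest ratio, and the other 3 lay closer together. The ratio of *Nfe2l2* to *Keap1* was 1.11 and 1.23 (WT) and 1.02 and 0.863 (Brg1 LKO), lower in both of the latter. *Txnrd1* over *Gsr* was 1.87 and 2.14 (WT) and 2.70 and 2.44 (Brg1 LKO), higher in both of the latter. Of the 45 ratios between 2 members, 15 did not overlap between the genotypes, 33.3% against 29.1% of all pairs of tested genes. *Slc7a11* was part of 7 of the 15. The share of separated ratios was thus near the background, and the ratios above are given as values only.

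The members varied more among the WT livers than between the genotypes. WT replicate 2 was above WT replicate 1 in 10 of 10 members, by 1.31-fold (*Gsr*) to 3.0-fold (*Gclc*), with a median difference of 0.71 on the log2 scale against 0.27 over all genes tested. *Gclc* differed by 1.57, and 0.486% of all genes tested had a larger difference in this direction. *Srxn1* differed by 1.12 and *Hmox1* by 1.05. In all 10 members the WT livers lay further apart than the genotype means, which held for 67.8% of all genes tested. The Brg1 LKO livers lay further apart than the genotype means in 6 of 10 members, against 75.1% of all genes tested. In the Brg1 LKO livers the members behaved otherwise, with LKO replicate 2 above LKO replicate 1 in 4 of 10 and a median difference of −0.064 against 0.30 over all genes tested. *Nqo1* had the largest gap there, −1.12.

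After median-ratio rescaling, which brought the all-gene medians to −0.017 for the WT livers and 0.037 for the Brg1 LKO livers, the members still stood at 10 of 10 above in WT replicate 2, with a median difference of 0.40. LKO replicate 2 was then above LKO replicate 1 in 1 of 10 (*Keap1*), with a median of −0.32. In 8 of 10 members the WT livers remained further apart than the genotype means, against 55.9% of all genes tested, and the exceptions were *Txnrd1* and *Slc7a11*. On the rescaled values *Slc7a11* was still lower in both Brg1 LKO livers, and *Nfe2l2* joined it at 6.55 and 8.39 FPKM (WT) and 6.51 and 6.50 FPKM (Brg1 LKO), where the nearest values differed by far less than the WT livers did. These 2 of 10 compare with 28.9% of all genes tested.

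**Figure D3:**
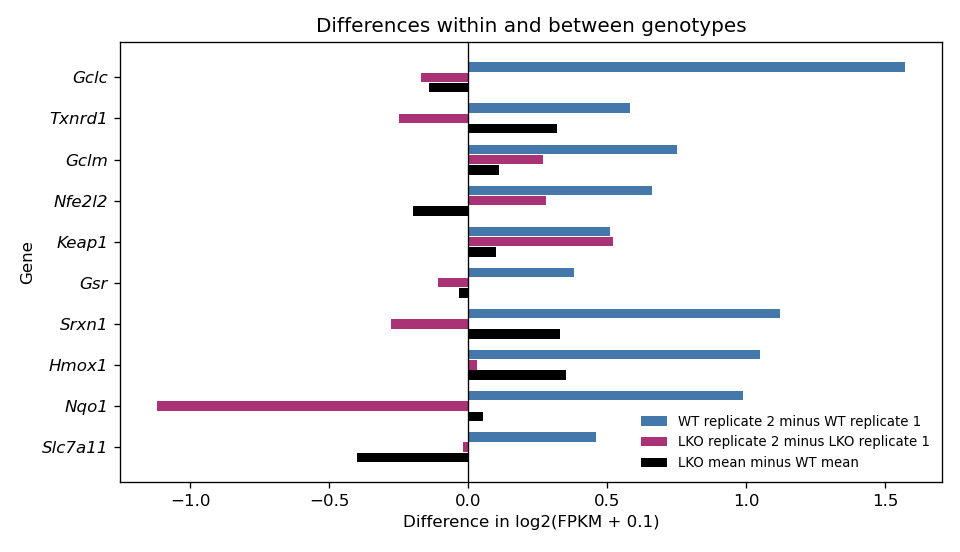
Differences in log2(FPKM + 0.1) for each member between the WT livers (blue), between the Brg1 LKO livers (purple) and between the genotype means (black). All 10 blue bars point to the right, from 0.38 for *Gsr* to 1.57 for *Gclc*, and each is longer than the black bar of its gene.

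The same pattern was present in other genes known as NRF2 targets. Of 34 listed genes, 33 were tested, and WT replicate 2 was above WT replicate 1 in 33 of 33, with a median difference of 0.97 on the log2 scale. In 14 of them (42.4%) the difference was more than 2-fold, against 2.79% of all genes tested. After median-ratio rescaling this held for 7 of 33 (21.2%, against 1.07%), and after quantile normalization for 8 of 33 (24.2%, against 1.18%). Several of the 14 were glutathione S-transferase paralogs that may share reads, so these genes are not independent observations. LKO replicate 2 was above LKO replicate 1 in 8 of 33 only, with a median of −0.29. After median-ratio rescaling the counts were 32 of 33 (47.7% of all genes tested) and 3 of 33 (53.2%). In the glutathione and thioredoxin lists described below, WT replicate 2 was above WT replicate 1 in 22 of 25 and 18 of 18 genes (medians 0.53 and 0.42). After median-ratio rescaling it was above in 18 of 25 and 11 of 18. On the deposited values, WT replicate 1 was the lowest of the 4 livers in 28 of the 33 targets (31.5% of all genes tested). WT replicate 2 was the highest in 27 of 33 (42.1%). This order over the genotypes depended on the scaling. After median-ratio rescaling, WT replicate 1 was lowest in 16 of 33 (14.5% of all genes tested) and LKO replicate 2 in 15 of 33 (27%), while WT replicate 2 was highest in 21 of 33 (24.7%) and LKO replicate 1 in 10 of 33 (27.2%).

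Glutathione S-transferases and the carbonyl reductase *Cbr3* are examples. *Gsta1* measured 4.73 and 20.5 FPKM in WT mice against 15.1 and 6.03 FPKM in Brg1 LKO mice. *Gsta2*, a close paralog with which it may share reads, had WT values of 18.2 and 68.5 FPKM and Brg1 LKO values of 50.8 and 25 FPKM. *Cbr3* reached 0.317 and 0.952 FPKM with the WT genotype and 1.09 and 0.341 FPKM after Brg1 deletion. Each of these genes had 1 high and 1 low liver in either genotype, the arrangement also seen in *Nqo1*. The drug exporter gene *Abcc4* measured 0.278 and 1.25 FPKM in WT mice against 0.853 and 0.375 FPKM in Brg1 LKO mice. *Akr1b8*, an aldo-keto reductase gene, was nearly equal in the WT livers, at 0.373 and 0.378 FPKM. *Osgin1* stood apart from the list in the Brg1 LKO livers, at 6.13 and 78.9 FPKM.

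Markers of the liver zones also differed between livers of the same genotype. All 8 markers of hepatocytes near the central vein were higher in WT replicate 2, with a median difference of 0.69 and sums of 765 and 1204 FPKM. In the Brg1 LKO livers 4 of 8 were higher in LKO replicate 2, with sums of 895 and 946 FPKM. Of the 8 periportal markers, 6 were higher in WT replicate 2, with a median of 0.096, and 2 were higher in LKO replicate 2, with a median of −0.25. After median-ratio rescaling the pericentral counts were 8 of 8 in WT replicate 2 and 3 of 8 in LKO replicate 2, and the periportal counts 3 of 8 and 0 of 8. None of the markers of either zone was at 0. Their part in the differences between livers was not tested.

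**Figure D4:**
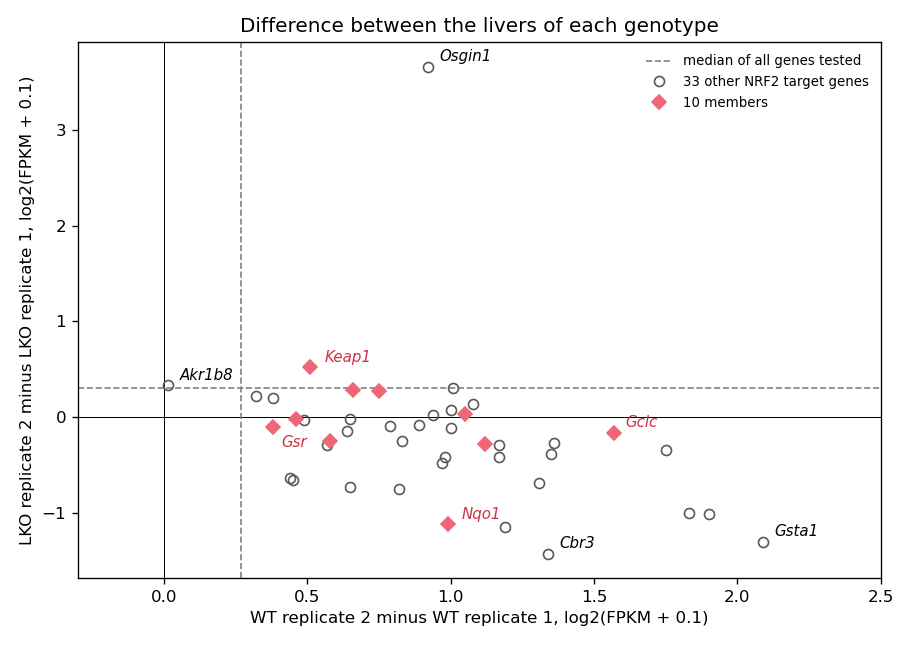
Difference between the WT livers (horizontal) and between the Brg1 LKO livers (vertical) in log2(FPKM + 0.1) for the 10 members (diamonds) and 33 other NRF2 targets (circles), with dashed lines at the medians of all genes tested, 0.27 and 0.30. All points lie to the right of 0, and most lie below the horizontal dashed line, with *Osgin1* far above it.

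In the comparison of genotypes, the wider pathway gave the same count as the members. Of 100 further genes in 5 lists, 95 were tested, 0 were past the threshold and 0 had an unadjusted p under 0.05, the lowest being 0.0709 (limma). The Brg1 LKO values lay both above or both below the WT values in 9 of the 95 genes (9.47%), 4 above and 5 below, against 20.7% of all genes tested. With 1 liver left out, calls in these lists are not given, because the lone liver of its genotype has no spread of its own.

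Among 14 partners and regulators of NRF2, 13 were tested, 9 higher and 4 lower, with a median log2 fold change of 0.045. *Bach1*, the heme-sensitive repressor that competes with NRF2 for AREs, had the highest value of the list. It had WT values of 1.75 and 1.63 FPKM and Brg1 LKO values of 3.0 and 2.03 FPKM, above in both, with a log2 fold change of 0.52 (95% interval from −0.23 to 1.27, limma, unadjusted p = 0.156). *Ep300*, a histone acetyltransferase gene, was the other gene of the list above in both. These 2 of 13 genes (15.4%) compare with 20.7% of all genes tested for either direction and 10.7% for this direction. *Maff*, a small MAF gene, had the lowest value, −0.36 (interval from −1.15 to 0.43), and its groups overlapped.

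The other NRF2 targets had 14 genes higher and 19 lower, with a median of −0.043. *G6pdx*, the gene of glucose-6-phosphate dehydrogenase, which supplies NADPH, reached 1.02 and 1.56 FPKM with the WT genotype and 1.96 and 1.59 FPKM after Brg1 deletion, a log2 fold change of 0.46 (interval from −0.31 to 1.22). *Gstp2* had the lowest value, −0.65 (interval from −1.37 to 0.064, limma, unadjusted p = 0.0709), with 771 and 1049 FPKM in WT mice and 713 and 458 FPKM in Brg1 LKO mice. *Gstp1* gave the same log2 fold change. The ratio of *Gstp2* to *Gstp1* stayed between 0.706 and 0.718 in the 4 livers, so these near-identical genes may share reads and count as 1 observation.

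The 28 genes of glutathione synthesis, use and turnover had 25 tested, 7 higher and 18 lower, with a median of −0.057. In 0 of 25 did the Brg1 LKO values lie both above or both below the WT values, against 20.7% of all genes tested. *Cth*, which makes cysteine from cystathionine, had the highest value, 0.54 (interval from −0.21 to 1.30), at 32.4 and 44.3 FPKM (WT) and 68.7 and 44.2 FPKM (Brg1 LKO). *Chac1*, which degrades glutathione, had the lowest, −0.62 (interval from −1.44 to 0.20), at 1.86 and 1.04 FPKM (WT) and 1.09 and 0.698 FPKM (Brg1 LKO). Both genes overlapped between the genotypes.

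The thioredoxin, peroxiredoxin, superoxide dismutase and catalase list had 18 genes, all tested, 7 higher and 11 lower, with a median of −0.053. *Sod2*, the mitochondrial superoxide dismutase gene, had the highest value at 0.27 (interval from −0.57 to 1.12), with 18.3 and 8.16 FPKM in the Brg1 LKO livers on either side of the WT livers at 9.78 and 10.4 FPKM. *Sesn2*, a stress-induced gene that is linked to NRF2 through KEAP1 turnover, had the lowest at −0.57 (interval from −1.33 to 0.20). It measured 1.10 and 1.57 FPKM in WT mice against 1.00 and 0.729 FPKM in Brg1 LKO mice, below in both. Of the 18 genes, 2 (11.1%) did not overlap between the genotypes, against 20.7% of all genes tested. In the heme handling list, 3 of 6 genes were higher and 3 lower. The genotypes did not overlap in 2 of these 6 (33.3%), 1 above and 1 below. *Cd163*, a macrophage receptor for haptoglobin and hemoglobin, had the highest value at 0.66 (interval from −0.18 to 1.51), and *Hmox2*, the constitutive heme oxygenase gene, the lowest at −0.12 (interval from −0.82 to 0.58).

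**Figure D5:**
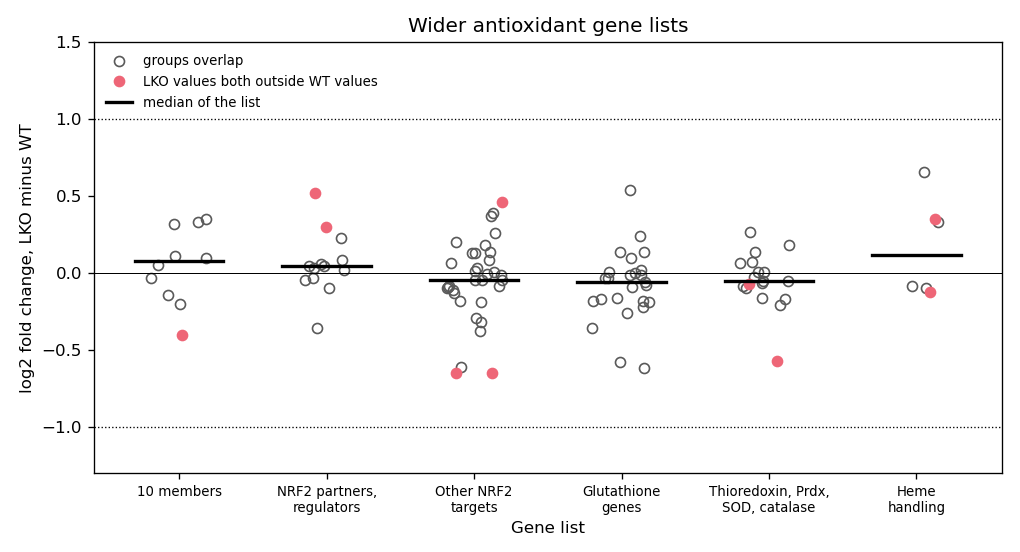
Log2 fold change (Brg1 LKO minus WT) of each gene tested in the 10 members and the 5 wider lists, with the median of each list as a bar and filled points where the Brg1 LKO values lie both above or both below the WT values. Dotted lines mark a 2-fold change, which no point reaches, and the list medians lie between −0.057 and 0.12.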

How the data were processed

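RNA-seq of whole liver from 2 WT and 2 Brg1 LKO mice was analysed, grouped by the sample labels. The authors deposited FPKM for 22103 entries, with no normalization between libraries stated. The study's methods name Trimmomatic, HISAT2, GRCm38, Cufflinks and a stranded Illumina kit, while the submitters' processing notes name HISAT2 2.0.4 and StringTie 2.1.4 and the labels name a BGIseq protocol. FPKM depends on the total of each library, so a few abundant genes can shift all others. Read totals were estimated from transcript lengths (GENCODE M21, GRCm38), with 88.9% to 89.8% of values of up to 20 reads within 0.1 of a whole read in transcripts of at least 2000 bases.

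A mean of 0.1 FPKM or more left 12346 genes, which were compared by limma 3.58.1 under R 4.3.3 (eBayes, trend on) on log2(FPKM + 0.1), a scale that understates changes of low genes. The step was tested on simulated data. Other values were computed with Python 3.11.15 and SciPy 1.17.1. Each of these was tried in place of one choice: a pseudocount of 1 or 0.01, leaving the filter off or raising it to 1 FPKM, quantile normalization or median-ratio rescaling, no trend in eBayes, voom on estimated reads, a replicate block, and omission of each liver in turn. Members and lists were chosen with earlier results of these data known. The rule named all members, and from each wider list every gene past the threshold and the genes with the highest and lowest log2 fold change at a mean of at least 1 FPKM. *Slc3a2*, *Ep300*, *Gsta1*, *Gsta2*, *Gstp1*, *Abcc4*, *Cbr3*, *Akr1b8*, *Osgin1*, *Alas1* and *Sqstm1*, as well as the ratios, were chosen after their values were seen. *Tf* and *Adgre1* of the marker lists stood in the table as *Trf* and *Emr1*.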

Additional observations from a re-analysis of the deposited data

How the results depend on the processing

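No member was past the threshold under any of the 9 alternatives that kept all livers or any of the 4 that left out 1 liver, and the 6 members above 0 stayed 6 under those 9. The median log2 fold change of the members ranged from 0.063 to 0.10 over the 9, and from −0.25 to 0.52 with 1 liver left out, the ends being WT replicate 1 and WT replicate 2. With 1 liver left out, the log2 fold change ranged from −0.54 to 0.13 for *Nfe2l2*, from −0.16 to 0.36 for *Keap1*, from −0.51 to 0.62 for *Nqo1*, from −0.17 to 0.88 for *Hmox1*, from −0.93 to 0.65 for *Gclc*, from −0.27 to 0.48 for *Gclm*, from −0.24 to 0.89 for *Srxn1* and from −0.23 to 0.16 for *Gsr*. The low end came without WT replicate 1 and the high end without WT replicate 2, except for *Keap1*, lowest without LKO replicate 2, and *Nqo1*, lowest without LKO replicate 1 and highest without LKO replicate 2. *Slc7a11* (−0.63 to −0.18) and *Txnrd1* (0.035 to 0.61) kept their direction, which for *Slc7a11* follows from groups that did not overlap. The wider lists had 0 genes past the threshold under the 9 alternatives and 1 to 3 with 1 liver left out. Over all genes, 121 were past the threshold, against 18 with a pseudocount of 1, 80 with no filter, 68 with a filter at 1 FPKM, where fewer genes were tested and *Slc7a11* was not among them, and 78 (without WT replicate 2), 231 (without WT replicate 1), 450 (without LKO replicate 2) and 552 (without LKO replicate 1) with 1 liver left out. *Smarca4* was at −0.85 with a pseudocount of 1, where it missed the threshold. What caused these other changes was not tested. The replicate numbers were treated as names. Deviations of same-numbered livers from their group means correlated at r = 0.0307 over 12346 genes, which cannot show a shift common to all genes of a liver. Median-ratio scale factors were 0.904 (WT replicate 1) and 0.9 (LKO replicate 1), against 1.12 (WT replicate 2) and 1.1 (LKO replicate 2). Whether same-numbered livers shared a batch was not tested. A replicate block gave 108 genes past the threshold and 0 members. With 1 liver left out, the lone liver of its genotype is assumed to vary like the pair of the other. Depth sets the counting error of the members, which rested on 71 to 7215 estimated reads per liver, and no test at lower depth was run.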

Other observations

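Some genes of the wider lists differed between livers of the same genotype. *Osgin1*, an oxidative stress-induced growth inhibitor gene, had WT values of 20.9 and 39.6 FPKM, both between the Brg1 LKO values of 6.13 and 78.9 FPKM. *Alas1*, which encodes the rate-limiting enzyme of heme synthesis in the liver, had WT values of 122 and 179 FPKM and Brg1 LKO values of 267 and 72.7 FPKM. The autophagy receptor gene *Sqstm1*, whose product binds KEAP1, reached 88.6 and 169 FPKM with the WT genotype and 89.7 and 156 FPKM after Brg1 deletion, a low and a high liver in each genotype. For none of the 3 was the difference between the genotypes past the threshold.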
